A study of Sus scrofa with 6 samples.

Results

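The circular RNAs (circRNAs) described here come from 3 host genes on pig chromosome 13, FANCD2, HSF2BP and SMC4. A circRNA is a closed ring made when the end of an exon is spliced back to the start of the same or an earlier exon, and it is counted by the reads that cross this back-splice. The members are all circRNAs that the deposited table assigns to these 3 gene symbols, which are 39 of 4350: 22 of FANCD2, 10 of HSF2BP and 7 of SMC4. Of these, 37 are exonic and 2, both of FANCD2, are intronic. The 3 host genes were chosen by the age difference measured in these same libraries, with results of that comparison already known. So the age differences below describe these circRNAs, and the number that passed a test is no evidence about DNA repair or chromosome genes as a class.

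The testes came from 3 Landrace boars of 30 days, labelled Piglet-D30, and 3 of 210 days, labelled Adult-D210, with 1 library per boar. Semen measures of the adult boars were normal before the testes were taken, per the methods. Whole tissue was used, ribosomal RNA was depleted and linear RNA was digested with RNase R, an enzyme that degrades linear but spares circular RNA. Because the tissue is bulk, a change in the number of cells that make a circRNA and a change in its amount per cell cannot be told apart. In its tissue sections the paper describes spermatogonia as the sole germ cells of the young testes and mature sperm in the adult tubules. Marker genes could not check the cell content of the libraries: of 37 testis markers, 8 had a row, all 13 of their circRNAs were intronic, and they held 80 reads in all.

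The paper reports many more circRNAs from these testes than the deposited table lists. Ranks, counts of circRNAs and genes without a row therefore describe the table and not the testis. Over the 4350 circRNAs of the table, the 6 libraries summed to between 12701 and 33091 back-splice reads. The sum was highest in Piglet-D30 replicate 1, which had the fewest mapped reads (37364412 against up to 49179118). All 2552 exonic circRNAs of the table have at least 1 read in that library, while no other library detected more than 1247 of them, so its high sum follows in part from how the table was made. An exonic circRNA seen in other boars but not in Piglet-D30 replicate 1 is therefore not listed here, and results are given with and without that library where they depend on it. Levels are in SRPBM, the back-splice reads divided by the mapped reads and by the read length, as scaled by the authors. They count the reads at 1 back-splice per circle and are not scaled by its length, so circles of different length are set side by side. Whether short and long circles yield back-splice reads equally was not examined.

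The 3 proteins act on chromosomes in different ways. FANCD2 is a central protein of the Fanconi anemia pathway, which repairs DNA crosslinks, and it is mono-ubiquitinated and loaded on damaged DNA. HSF2BP is a germ cell protein needed for meiotic recombination in spermatocytes. SMC4 is an ATPase core subunit of the condensin complexes that compact chromosomes before they divide. Spermatogenesis starts at puberty, so the testis of a young boar holds few or no meiotic cells, while that of a mature boar makes sperm continuously. What any of these circRNAs does is not measured by these data.

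The members held 3040 back-splice reads. Of the 39, 13 had reads in every library, 8 were seen in a single library, and 18 had fewer than 10 reads over the 6 libraries and 72 reads between them. The other 21 reached the filter of 10 reads and were tested with the rest of the table: 10 of FANCD2, 9 of HSF2BP and 2 of SMC4. Of the exonic members, 7 of 37 (18.9%) were seen only in Piglet-D30 replicate 1, against 25.5% of all exonic circRNAs.

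A circRNA was called when edgeR's quasi-likelihood test gave a Benjamini-Hochberg adjusted p under 0.05 over all 1341 circRNAs tested, and when the level differed by 1 or more on the log2 scale. By this rule 5 members were called higher in Adult-D210: circRNA11496 of SMC4, circRNA11173 and circRNA11170 of FANCD2, and circRNA12244 and circRNA12245 of HSF2BP. No member was called lower by edgeR or DESeq2, which called 4 of the 5 higher and not circRNA12244. Over all circRNAs tested, 3.43% were called higher and 4.85% lower. At an unadjusted edgeR p under 0.05 with the same fold limit there were 6 members higher and 1 lower, against 7.68% and 16.5% of all circRNAs tested. The 1 lower was circRNA11494 of SMC4, which reached the filter through its 10 piglet reads alone. With 21 members, none called lower is near the 4.85% called lower over all circRNAs tested. The median log2 fold change of the tested members was 1.14, against −0.42 for all circRNAs tested, and 17 of 21 lay above 0, against 534 of 1341 (39.8%). Without Piglet-D30 replicate 1 these medians were 1.66 and −0.20. With that library out of the filter as well, they were 1.81 over the 18 members then tested and −0.05 over all, and 48.6% of all circRNAs lay above 0. That filter itself bears on the member median. circRNA11166 and circRNA11176 passed it through 14 and 16 adult reads alone, and circRNA11494 fell below it.

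The scale on which libraries were matched bears on all these values. The main test matched libraries on the circRNAs themselves (TMM). When mapped reads served as library size instead, the median of all circRNAs tested moved from −0.42 to −0.90, all 5 called members stayed above 0, and circRNA11496 alone was still called.

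**Figure D1:**
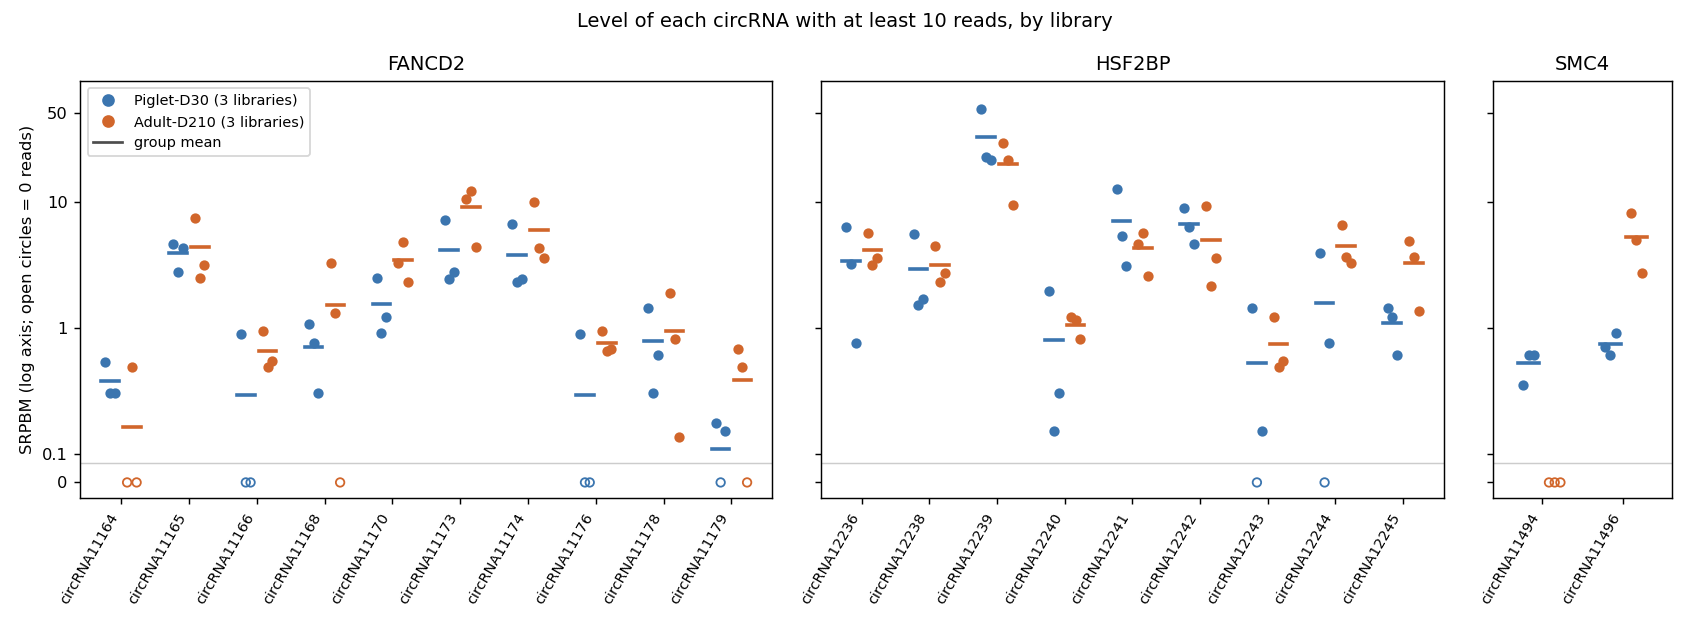
Level of the 21 member circRNAs with at least 10 reads, in SRPBM on a log axis, for each of the 3 Piglet-D30 (blue) and 3 Adult-D210 (orange) libraries, with short lines at the group means and open circles at the bottom for libraries with 0 reads. circRNA12239 of HSF2BP sits highest in both groups, and for SMC4 the libraries of the groups separate in opposite directions for circRNA11494 and circRNA11496.

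Of the 2 SMC4 circRNAs tested, circRNA11496 was called higher in the mature testis. It is made of 2 exons with 280 nt between them and spans chr13:108413402-108415199 on the plus strand of Sscrofa10.2. It had 0.714, 0.611 and 0.921 SRPBM in Piglet-D30 replicates 1, 2 and 3, from 4, 4 and 6 reads. In Adult-D210 it had 8.13, 4.94 and 2.73 SRPBM, from 60, 30 and 20 reads. Every adult library lay above every piglet library, and the group means were 0.749 ± 0.158 and 5.27 ± 2.72 SRPBM (SD, n = 3 each).

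The fitted difference of circRNA11496 was 3.19 on the log2 scale (SE 0.53; edgeR adjusted p = 0.00187), or 9.13-fold. It was called whichever library was left out, at log2 fold changes of 2.93 to 3.50 and adjusted p of at most 0.0272. With mapped reads as library size the log2 fold change was 2.78 (edgeR adjusted p = 0.0279).

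A second SMC4 circRNA, circRNA11494, showed the opposite order. Its 3 exons span chr13:108411657-108413554, and its last exon is the first exon of circRNA11496, a stretch of 153 nt at chr13:108413402-108413554. circRNA11494 had 2, 4 and 4 reads in the Piglet-D30 libraries (0.527 ± 0.148 SRPBM, n = 3) and 0 in every Adult-D210 library. Scaled by mapped reads and against a floor of 3 reads over the adult group, it was at least 3.71-fold lower there. That bound leaves out counting error in the piglet reads. As all 10 of its reads were in piglets, it reached the filter of 10 reads through that group alone. It was not called (edgeR adjusted p = 0.177).

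The shared exon also closed on itself as circRNA11495, with 1 read in Piglet-D30 replicate 1. The remaining SMC4 circRNAs, circRNA11490 to circRNA11493, had 2, 9, 7 and 6 reads and were not tested. The span of circRNA11492, the longest of them with 6 exons, encloses that of circRNA11496.

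Within SMC4, reads were spread over several circles in piglets and concentrated on circRNA11496 in adults. It took 26.7% (95% Wilson interval 10.9 to 52.0), 50.0% (21.5 to 78.5) and 33.3% (16.3 to 56.3) of the SMC4 back-splice reads in the piglet libraries. In the adult libraries it took 96.8% (89.0 to 99.1), 93.8% (79.9 to 98.3) and 83.3% (64.1 to 93.3). The mean share was 36.7% ± 12.0 in piglets and 91.3% ± 7.05 in adults (SD, n = 3 each), a difference of 54.6 percentage points. The groups did not overlap, and the exact two-sided permutation test gave p = 0.1, the smallest that 3 against 3 allows. circRNA11496 was taken as the leading circle by its reads over all 6 libraries, and adults held 118 of the 159 SMC4 reads. Whether leading circles of other hosts separate the ages was not counted. The piglet shares rest on 15, 8 and 18 reads, and all such intervals cover counting error only.

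Summed over all its circRNAs, SMC4 had 2.68, 1.22 and 2.76 SRPBM in piglets and 8.40, 5.27 and 3.28 SRPBM in adults. The sum was higher in Adult-D210 by 2.08 on the log2 scale (SE 0.45; edgeR adjusted p = 0.000558 over 478 host genes). Of all host genes tested, 7.32% were called higher in Adult-D210, and the median log2 fold change of a host sum was −0.32. With mapped reads as library size it was 1.36 and not called (edgeR adjusted p = 0.130).

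FANCD2 formed many circles, most of them rare. Its 20 exonic circRNAs put it at rank 9 of the 659 host genes of exonic circRNAs in this table by number of exonic circRNAs and at rank 26 by reads (888). They lay within chr13:73316240-73369432, had 2 to 21 exons with a median of 4.5, and spanned a median of 6825.5 bases, against 4 exons and 8725 bases for all exonic circRNAs. The introns beside them were shorter than usual for the table, with medians of 1572 bases before and 1332 after the circle, against 4646 and 5057. The longest circle in exons, circRNA11171 with 21, had 1 read.

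A few splice sites carried most FANCD2 reads. The start at position 73329729 was used by 4 circRNAs, which held 361 reads or 40.7% of the host's exonic reads. The end at position 73340904 was used by 2 circRNAs, which held 450 reads or 50.7%. The end at position 73361482 was shared by more circRNAs, 5, but they held 39 reads. Reads at the start 73329729 summed to 5.78 ± 3.66 SRPBM in piglets and 12.6 ± 5.37 SRPBM in adults (SD, n = 3 each).

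**Figure D2:**
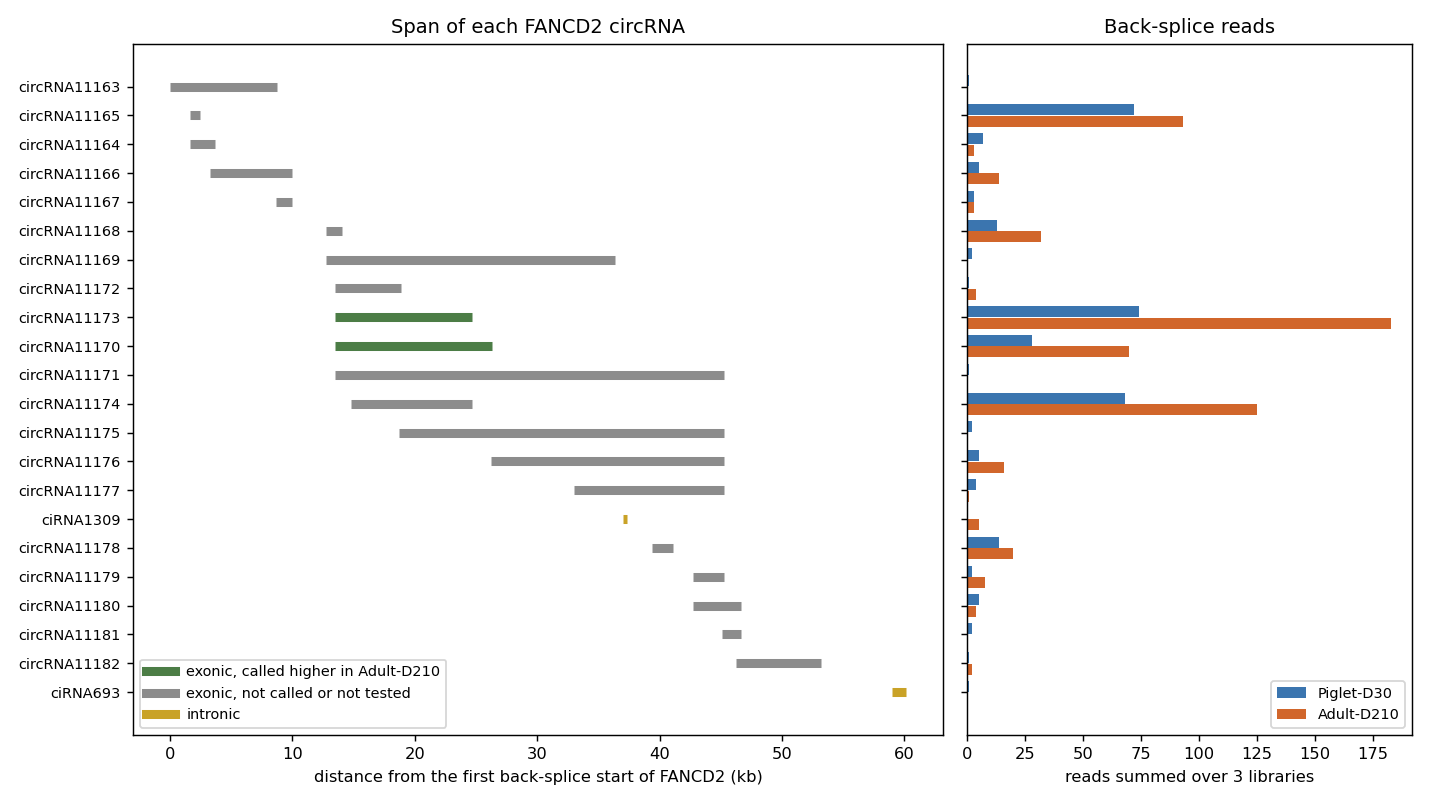
Left, the span of each of the 22 FANCD2 circRNAs as distance in kb from the first back-splice start of the gene, with those called higher in Adult-D210 in green, other exonic ones in grey and intronic ones in yellow. Right, bars of the reads summed over the 3 libraries of each age; circRNA11173, circRNA11174 and circRNA11165 hold the longest bars, and the called circRNA11173 and circRNA11170 share their start.

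The leading FANCD2 circle, circRNA11173, is built from 6 exons and joins those most used sites, chr13:73329729-73340904. Its levels were 7.14, 2.45 and 2.76 SRPBM in piglets (40, 16 and 18 reads). In adults they were 10.6, 12.0 and 4.37 SRPBM (78, 73 and 32 reads). The lowest adult library lay below the highest piglet library, so the groups overlapped on this scale, with means of 4.12 ± 2.62 and 8.99 ± 4.07 SRPBM (SD, n = 3 each).

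The fitted difference of circRNA11173 was 1.66 on the log2 scale (SE 0.40; edgeR adjusted p = 0.0160). It was still called when Piglet-D30 replicate 1 or Adult-D210 replicate 3 was left out, and not when any other library was, with log2 fold changes of 1.38 to 2.01 in all. Its share of the FANCD2 reads was 24.1%, 25.0% and 22.5% in piglets and 26.8%, 41.5% and 28.8% in adults. The mean shares were 23.9% ± 1.27 and 32.4% ± 7.95 (SD, n = 3 each), and the exact two-sided permutation p was 0.1. Without Adult-D210 replicate 2 the difference in share fell from 8.50 to 3.95 percentage points.

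circRNA11170 opens at the same start and runs 1 exon further, over 7 exons to chr13:73329729-73342587. It had 2.50, 0.917 and 1.23 SRPBM in piglets and 3.25, 4.78 and 2.32 SRPBM in adults, and the groups overlapped. Its log2 fold change was 1.68 (SE 0.51; edgeR adjusted p = 0.0496), just inside the threshold, and it was no longer called when any 1 of the 6 libraries was left out.

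circRNA11174 uses the same end as circRNA11173 but starts further downstream and holds 4 exons (chr13:73331002-73340904). It had 6.60, 2.29 and 2.46 SRPBM in piglets and 9.90, 4.28 and 3.55 SRPBM in adults. Its log2 fold change was 1.17 (SE 0.42), and its adjusted p was the smallest among the FANCD2 circles that were not called (edgeR adjusted p = 0.106). circRNA11165, with 2 exons at chr13:73317888-73318687 near the upstream limit of the FANCD2 circles, had 4.64, 2.75 and 4.30 SRPBM in piglets and 7.46, 2.47 and 3.14 SRPBM in adults. The groups overlapped in full, and its log2 fold change was 0.61 (SE 0.44; edgeR adjusted p = 0.398).

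The other 6 FANCD2 circRNAs tested were not called. Their log2 fold changes ran from −0.81 for circRNA11164 to 2.09 for circRNA11179, with standard errors of 0.84 to 1.45. The remaining 10 exonic FANCD2 circRNAs and ciRNA1309 and ciRNA693 were below the filter. ciRNA1309, an intronic circRNA at chr13:73353253-73353551, had 0 reads in every piglet library and 4, 1 and 0 in the adults, and ciRNA693 had 1 read in Piglet-D30 replicate 2.

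All FANCD2 exonic circles together had 29.6, 9.78 and 12.3 SRPBM in piglets and 39.4, 29.0 and 15.2 SRPBM in adults. The groups overlapped, and on this scale the exact two-sided permutation p was 0.3. In the TMM-scaled fit over host genes the sum was higher in Adult-D210 by 1.50 on the log2 scale (SE 0.28; edgeR adjusted p = 8.83e-05), and it stayed called whichever library was left out (1.37 to 1.80). With mapped reads as library size the difference was 0.72 and not called (edgeR adjusted p = 0.316). The number of exonic FANCD2 circRNAs detected was 20, 7 and 9 in the piglets and 11, 14 and 9 in the adults, where the first value follows from the way the table was made.

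**Figure D3:**
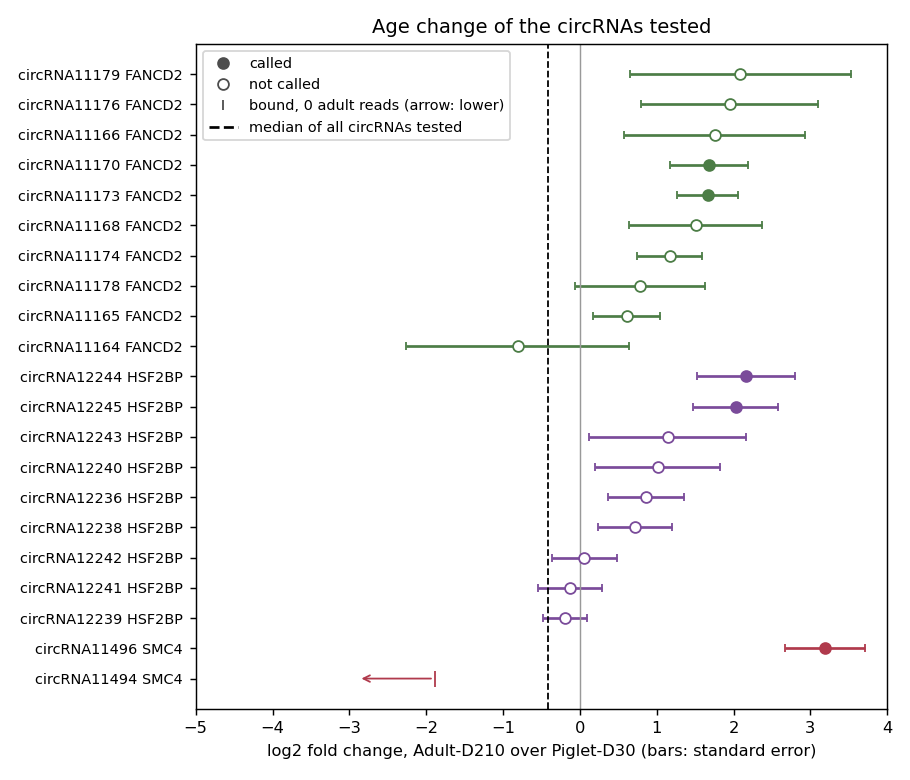
Log2 fold change of Adult-D210 over Piglet-D30 for the 21 tested circRNAs, with bars of 1 standard error from the edgeR fit, filled points for the 5 called, and a dashed line at −0.42, the median of all 1341 circRNAs tested. All FANCD2 points but circRNA11164 lie above 0, and the HSF2BP points run from −0.20 to 2.16. circRNA11494 of SMC4 had 0 adult reads and is drawn as a bound at −1.89 with an arrow toward lower values, from a floor of 3 reads over the adult group and mapped reads.

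HSF2BP was the most abundant of the 3 hosts as circular RNA. It ranked 9 of these 659 host genes by exonic back-splice reads (1987) with 10 circRNAs. All 10 can be placed on a chain of 6 exons of 151, 104, 150, 133, 118 and 104 nt, read from the introns beside each circle, between chr13:216655489-216696594. Each circle joins 1 exon of this chain to a later one. Of 15 possible pairs of different exons, 10 were seen in the table. No listed circle ran from exon 1 to 6, 2 to 3, 3 to 4, 3 to 6 or 4 to 6. The end of exon 5 closed 4 of the circles and 68.6% of the reads.

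The main HSF2BP circle was circRNA12239, which holds exons 1 to 5 in 656 nt. It had 54.2, 22.6 and 21.3 SRPBM in piglets and 29.3, 21.3 and 9.43 SRPBM in adults, and ranked 11 of 2552 exonic circRNAs by mean level. The groups overlapped, with means of 32.73 ± 18.6 and 19.99 ± 9.99 SRPBM (SD, n = 3 each). The log2 fold change was −0.20 (SE 0.29; edgeR adjusted p = 0.711), and its sign turned to 0.09 when Piglet-D30 replicate 1 was kept out of the filter and the test.

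The 2 called HSF2BP circles are short and lie at the downstream end of the chain. circRNA12244 joins exons 4 and 5 in 251 nt (chr13:216680032-216687050). It had 3.93, 0 and 0.768 SRPBM in piglets, from 22, 0 and 5 reads, and 6.51, 3.63 and 3.28 SRPBM in adults, from 48, 22 and 24 reads. Piglet-D30 replicate 1 lay within the adult range. Its log2 fold change was 2.16 (SE 0.64; edgeR adjusted p = 0.0447), and of the 6 fits that leave out a library it was called only without Piglet-D30 replicate 1, at 3.72.

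circRNA12245 joins exons 5 and 6 in 222 nt (chr13:216686933-216696594). It had 1.43, 1.22 and 0.614 SRPBM in piglets and 4.88, 3.63 and 1.37 SRPBM in adults, so a single adult library fell inside the piglet range. Its log2 fold change was 2.02 (SE 0.56; edgeR adjusted p = 0.0312), and it was called in 1 of the 6 fits that leave out a library, the one without Adult-D210 replicate 3. With mapped reads as library size the log2 fold changes of circRNA12244 and circRNA12245 were 1.58 and 1.59, and neither was called (edgeR adjusted p = 0.223 and 0.169).

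The other common HSF2BP circles start at exon 1 or 2 and were not called. circRNA12236, exons 1 and 2, is as short as the called circles (255 nt) and had 3.41 ± 2.74 SRPBM in piglets and 4.13 ± 1.37 in adults (SD, n = 3 each; log2 fold change 0.86, SE 0.50, edgeR adjusted p = 0.285). circRNA12241, exons 2 to 5, had 6.97 ± 4.91 and 4.27 ± 1.53 SRPBM (log2 fold change −0.13, SE 0.42). circRNA12242, exons 2 to 6, had 6.60 ± 2.18 and 4.97 ± 3.75 SRPBM (log2 fold change 0.06, SE 0.43). The sign of circRNA12241 turned without TMM and that of circRNA12242 with mapped reads as library size.

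circRNA12238 (exons 1 to 4), circRNA12240 (exons 2 to 4) and circRNA12243 (exons 3 to 5) had log2 fold changes of 0.72, 1.01 and 1.14 and were not called. circRNA12237, exons 1 to 3, had 5 reads, all in Piglet-D30 replicate 1.

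**Figure D4:**
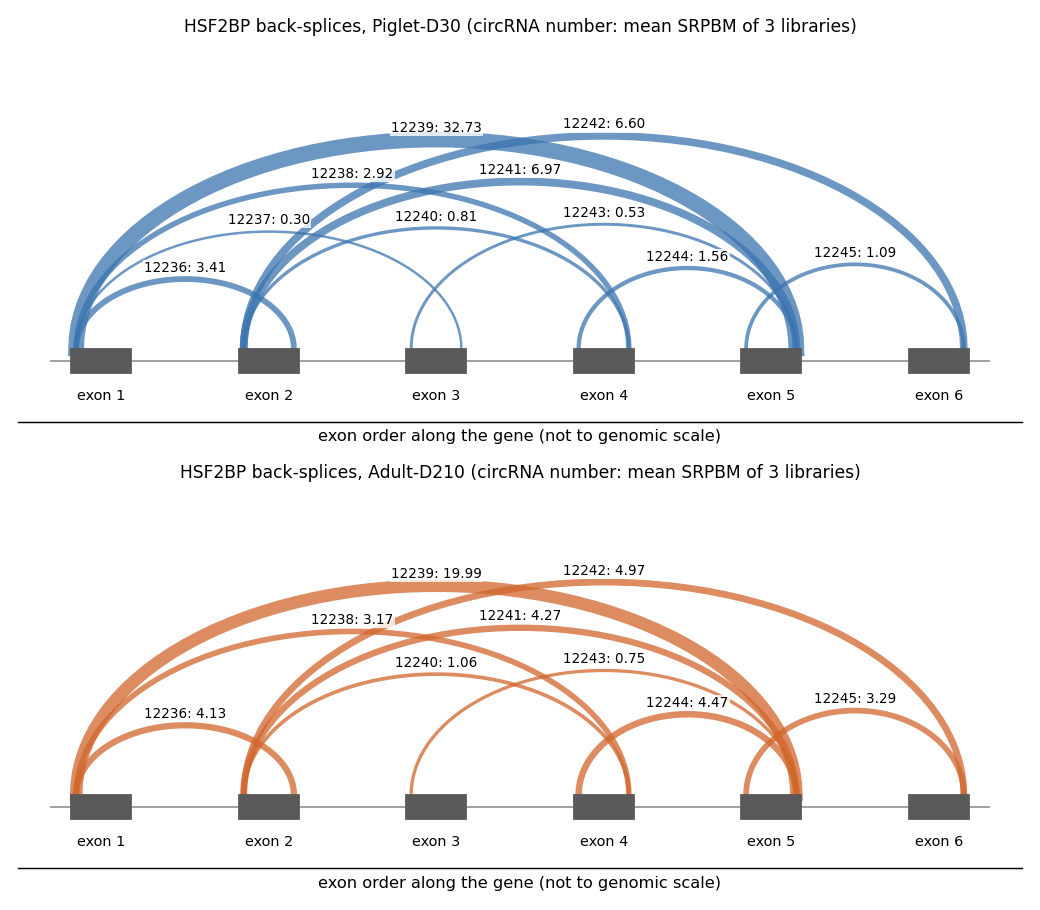
The 6 HSF2BP exons in order (boxes, not to genomic scale) with an arc for each back-splice, labelled with the circRNA number and its mean SRPBM over 3 libraries, for Piglet-D30 above and Adult-D210 below; wider arcs stand for higher levels. The arc of circRNA12239 over exons 1 to 5 is the widest at both ages (32.73 and 19.99), and the arcs of circRNA12244 and circRNA12245 are wider in the adult panel.

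Shares within HSF2BP do not depend on how libraries were scaled. circRNA12239 took 55.9% (95% Wilson interval 51.7 to 60.0), 56.1% (50.0 to 61.9) and 64.1% (57.5 to 70.1) of the HSF2BP reads in piglets. In adults it took 43.6% (39.3 to 48.0), 49.0% (43.1 to 55.1) and 33.8% (27.7 to 40.6). The mean share was 58.7% ± 4.67 in piglets and 42.2% ± 7.72 in adults (SD, n = 3 each), a difference of −16.5 percentage points. Each piglet share lay above each adult share, with an exact two-sided permutation p of 0.1, the smallest possible. How often the leading circRNA of other hosts separates the ages in this way was not counted.

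Circles of 2 exons held more of the HSF2BP reads in adults. Together they took 9.80% ± 2.94 in piglets and 26.3% ± 2.82 in adults (SD, n = 3 each). Those of 5 exons held 71.5% ± 6.40 and 52.6% ± 5.53, and those of 4 exons 16.6% ± 2.17 and 17.0% ± 3.00. This split by number of exons was chosen after the values were seen and was not tested. Of the 2-exon circles, circRNA12244 went from a mean share of 2.12% to 9.94% and circRNA12245 from 2.11% to 6.85%. The remaining one, circRNA12236, went from 5.56% to 9.48%, and its shares in the 2 groups overlapped.

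**Figure D5:**
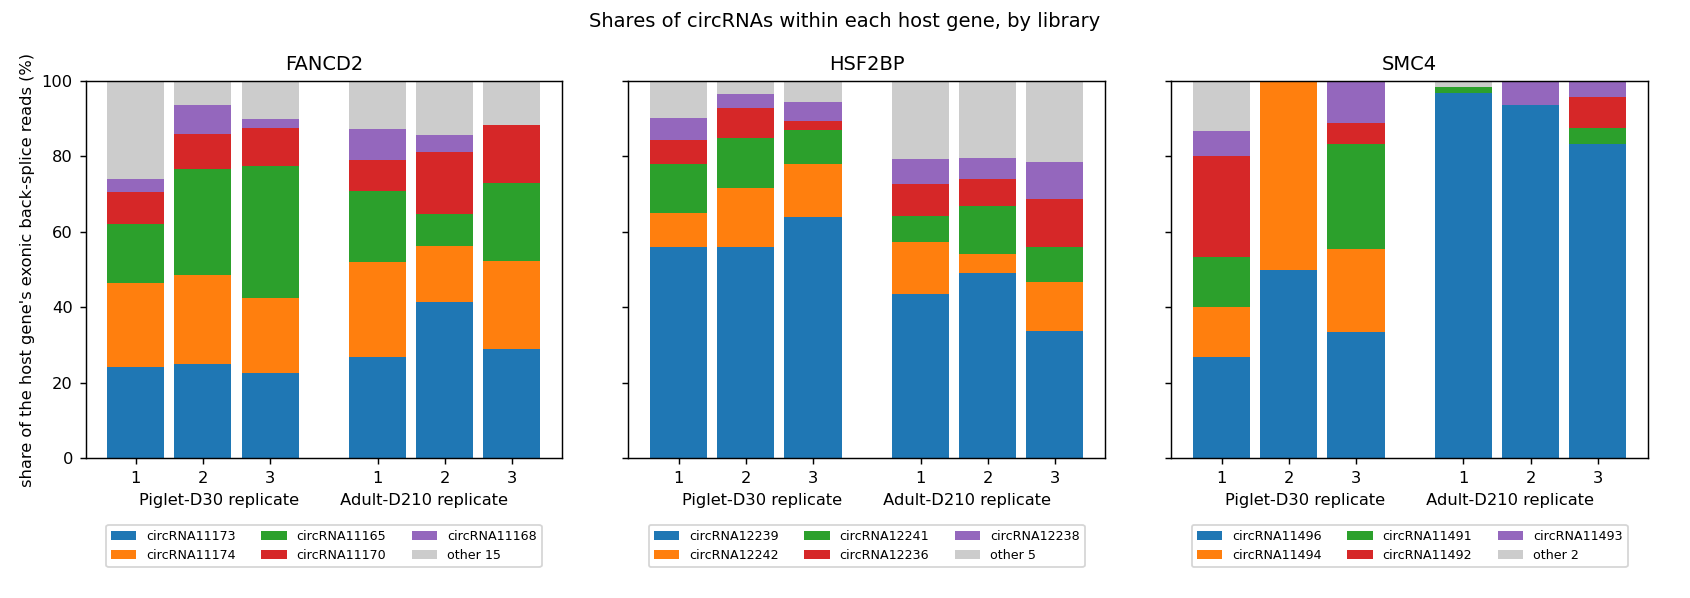
Stacked bars of the share, in percent, of each host gene's exonic back-splice reads held by its 5 leading circRNAs and by the rest (grey), for each of the 6 libraries. circRNA11496 fills 83.3% to 96.8% of the adult SMC4 bars, while the circRNA12239 segment of HSF2BP is smaller in every adult library than in every piglet library.

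The HSF2BP sum itself did not pass the test. It was 97.1, 40.3 and 33.3 SRPBM in piglets and 67.1, 43.3 and 27.9 SRPBM in adults (exact two-sided permutation p = 0.7). The fitted log2 fold change was 0.51 (SE 0.24; edgeR adjusted p = 0.118), and it turned to −0.29 with mapped reads as library size.

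Whether a circRNA changed differently from its host gene as a whole was tested directly, over 1105 circRNAs of hosts with at least 2 tested circRNAs. The host value includes the circRNA itself. Over the whole set, 2 circRNAs passed (0.181%), and of the 21 members none did by edgeR's diffSpliceDGE at an adjusted p under 0.05. At an unadjusted p under 0.05 there were 3 members, against 81 in the whole table. They were circRNA11494, circRNA12244 and circRNA12245. circRNA11494 was lower than SMC4 as a whole (edgeR adjusted p = 0.105). SMC4 had only 2 tested circRNAs, so its host value rests on circRNA11494 and circRNA11496 alone. circRNA12244 and circRNA12245 were higher than HSF2BP as a whole by 1.91 and 1.78 on the log2 scale (edgeR adjusted p = 0.220 and 0.371).

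Other host genes of the same pathways were counted for background. Lists of Fanconi anemia and crosslink repair, meiotic recombination and synapsis, condensin, cohesin and SMC5/6, and other DNA damage response genes hold 225 genes besides the 3 hosts. Of these, 31 had 90 circRNAs in the table, and 34 circRNAs of 10 hosts were tested. None was called by edgeR in either direction, with 3 higher and 3 lower at an unadjusted p under 0.05 and the same fold limit and none called by DESeq2. The calls are to be read against the 3.43% and 4.85% of all circRNAs called higher and lower. The counts at the unadjusted limit are to be read against 7.68% higher and 16.5% lower. The lists were not tested against the members, which were chosen by the age difference itself. The median log2 fold change of the listed circRNAs tested was −0.65, with 11 of 34 above 0.

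By list, the median log2 fold change was −0.71 over 11 circRNAs for the Fanconi list and −0.37 over 17 for other damage response genes. For the list of condensin, cohesin and SMC5/6 it was −1.45 over 5 circRNAs of 2 hosts, named after their values were seen. Those of TOP2B, a topoisomerase gene on that list and no subunit of these complexes, had −2.75, −1.52 and −1.45. Those of the cohesin gene STAG1 had 0.43 and 1.09, so this median does not describe the complexes. The meiotic list had a single tested circRNA, circRNA10136 of MND1, named after its values were seen. It had 10 reads in piglets and 0 in adults, at least 3.71-fold lower against the same floor and on the same mapped-read scale. It too reached the filter through its piglet reads alone.

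The host genes whose summed circRNA level followed each of the 3 most closely over the 6 libraries were found among 216 hosts with at least 100 reads. For FANCD2 these were the histone methyltransferase SETD2 (Pearson r 0.99), the solute carrier SLC38A10 (0.99) and the actin histidine methyltransferase SETD3 (0.98). For SMC4 they were ART3 (0.97), IQCG (0.97), a gene of the sperm flagellum, and the heat shock protein HSPA4L (0.96). For HSF2BP the values were lower, with WDR20, listed by its Ensembl ID (0.91), CCDC57 (0.91) and PDLIM5 (0.90). These values describe 6 libraries that share their ages and depths, so no test is attached.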

How the data were processed

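Testis RNA of 6 boars was sequenced as 150-base read pairs after ribosomal RNA depletion and RNase R digestion. Per the labels and the study's methods, adapters were removed by the authors (cutadapt), TopHat2 placed the reads on Sscrofa10.2 and back-splices were found by TopHat-Fusion and CIRCExplorer2. The deposited table gives a raw back-splice read count and SRPBM, a signal the authors scaled by mapped reads and read length, for each library. All of its sample columns were used, and the genome's sequence was not used here.

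Counts were fitted in edgeR 4.0.16 under R 4.3.3 (TMM, robust quasi-likelihood in its newer form, at least 10 reads over the 6 libraries, age as the only term). Benjamini-Hochberg adjustment ran over all circRNAs tested, and the same fit was made on exonic reads summed per host gene. diffSpliceDGE compared circRNAs with their host. Exact permutation tests used SciPy 1.17.1, and DESeq2 1.42.0 was an alternative. The procedure was tested on simulated data. Mapped reads were recovered from count and SRPBM. Floors are 3 reads over a group, and bounds against them are scaled by mapped reads. The closing section names the alternatives.

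Members, gene lists and tests were chosen with earlier results of these data known. All members are accounted for. Of the listed hosts, those called were to be named, and for each host the 3 others with the highest correlation of log2 CPM (prior count 2). No 2 libraries of the same age agreed within sampling noise. Each library is a separate boar, so p-values measure spread between boars. Of 482 hosts named by Ensembl ID, 284 matched a symbol. Counts of a circle that nests in another cover its back-splice only.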

Additional observations from a re-analysis of the deposited data

How the results depend on the processing

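The call of circRNA11496 held in every alternative run. The number of members called higher, 5 in the main fit, was 5 without TMM, with RLE size factors, with at least 20 reads, by the edgeR exact test and with no fold change limit. It was 4 by DESeq2 (circRNA12244 lost, adjusted p = 0.0691) and 4 with no filter on low counts (circRNA11170 lost, edgeR adjusted p = 0.106), 1 with mapped reads as library size, 3 with an older form of that fit (chosen after seeing the data), 3 with Piglet-D30 replicate 1 kept out of filter and test, and 1 to 3 when a library was left out. With mapped reads the host sum was 0.72 for FANCD2, 1.36 for SMC4 and −0.29 for HSF2BP. Over all circRNAs tested, 46 were called higher and 65 lower in the main fit, 9 and 68 with mapped reads. The signs that turned belong to circRNAs that were not called: circRNA12241 was 0.037 without TMM, 0.29 with Piglet-D30 replicate 1 kept out, and −0.40 to 0.28 when a library was left out (0.0096 without Adult-D210 replicate 3). circRNA12242 was −0.38 with mapped reads and −0.47 to 0.41 when a library was left out (−0.039 without Piglet-D30 replicate 3). circRNA12239 was 0.094 with Piglet-D30 replicate 1 kept out of filter and test and −0.39 to 0.072 when a library was left out (0.044 without Adult-D210 replicate 3), and circRNA11178 was −0.051 to 1.24. Among the listed other hosts 1 circRNA was called higher with no filter on low counts (circRNA10764 of WDR48, 1.67). Another, circRNA11400 of HLTF, was called higher with Piglet-D30 replicate 1 kept out. It had 0 reads in the other piglets and was at least 6.29-fold higher against a floor of 3 reads, scaled by mapped reads. In that run it reached the filter through its 30 adult reads alone. The shares of the leading circRNAs kept their direction in every alternative. The cause was not tested.

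With the replicate number as a block, 1 member was called higher, the same circRNA11496 (edgeR adjusted p = 0.0378), 14 circRNAs were called higher and 19 lower over the table, and circRNA12242 was −0.021. The labels do not tie equal numbers to a shared litter or day. Deviations of same-numbered libraries correlated at −0.03 to 0.05, and 2 of 6 libraries correlated best with their own number. Such small correlations cannot settle whether the numbers pair the boars.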
